A study of Mus musculus with 12 samples.

Results

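The resting miRNA profile of the mouse hippocampus is described here from the 6 libraries of the sedentary lineage, chosen by their group label out of 12 small RNA libraries, with all 513 miRNA arms that have a value. The study as a whole set grandsons (F2, through the male line) of exercised grandfathers against grandsons of sedentary grandfathers, the F0 animals. The 6 mice described here were wild-type C57BL/6J males of the sedentary lineage, 1 library per mouse, and the 6 exercised-lineage libraries (same strain, sex, genotype and tissue) serve only as a second set of animals in which a pattern can be looked at again. The labels give neither the ages of the mice nor what the library codes mean: replicates 1 to 3 carry codes with the stem S11 and replicates 4 to 6 with the stem S41. Where mice with 1 stem are relatives or were processed together, the 6 libraries are not fully independent, and the spread given below may then be too small.

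A miRNA is cut from a hairpin-shaped precursor, which leaves a short duplex of 2 arms, 5p and 3p. Usually 1 arm, the guide, is kept in an Argonaute protein and silences messenger RNAs that pair with its seed, while the other arm, the passenger, is mostly degraded. Row names follow MirGeneDB, which groups miRNAs by family, numbers paralogues with P and marks the passenger with an asterisk. A row with a slash joins paralogues whose arm cannot be told apart, and an asterisk in brackets marks a row whose paralogues or versions carry different marks. In brain, a few miRNAs that act in neuronal differentiation and excitability are known to dominate.

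Sequences were matched for 132 hairpins (247 arms) to RefSeq mature miRNAs of GRCm38.p6, the build also called mm10. Each is printed 5′ to 3′ with the seed, bases 2 to 8, in capitals. The first set is shown because these arms carry the largest shares of the profile, together with the passenger of the leading hairpin.
Mir-9-P1/P2/P3_5p: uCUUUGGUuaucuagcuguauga
Mir-9-P1/P2/P3_3p*: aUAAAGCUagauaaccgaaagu
Mir-128-P1/P2_3p: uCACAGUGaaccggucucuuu
Mir-218-P1/P2_5p: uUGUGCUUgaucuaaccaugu
Mir-127_3p: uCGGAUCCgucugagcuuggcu
Mir-26-P1/P2_5p: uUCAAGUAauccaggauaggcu
Mir-21_5p: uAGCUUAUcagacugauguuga
Mir-126_3p(*): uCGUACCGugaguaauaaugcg
Mir-7-P1/P2_5p: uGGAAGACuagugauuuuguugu
All of these seeds differ from each other. In the RefSeq table the seed of Mir-26-P1/P2_5p was shared with miR-26b-5p, that of Mir-21_5p with miR-21c, that of Mir-218-P1/P2_5p with miR-7002-3p and that of Mir-7-P1/P2_5p with miR-7b-5p.

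The second set shows both arms of hairpins in which the arm marked as passenger was the more abundant, and in each pair that arm comes second.
Mir-674_5p: gCACUGAGaugggaguggugua
Mir-674_3p*: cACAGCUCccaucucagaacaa
Mir-582_5p: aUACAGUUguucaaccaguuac
Mir-582_3p*: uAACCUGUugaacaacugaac
Mir-671_5p: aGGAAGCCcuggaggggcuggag
Mir-671_3p*: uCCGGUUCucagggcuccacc
Mir-330_3p: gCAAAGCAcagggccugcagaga
Mir-330_5p*: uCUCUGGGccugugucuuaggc
Mir-423_5p: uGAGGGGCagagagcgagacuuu
Mir-423_3p*: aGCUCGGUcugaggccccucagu
Mir-431_5p: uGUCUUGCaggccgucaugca
Mir-431_3p*: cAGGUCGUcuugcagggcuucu
Mir-384_3p: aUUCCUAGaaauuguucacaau
Mir-384_5p*: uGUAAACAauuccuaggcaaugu
The seed differs between the arms in each of these hairpins, so each arm has its own set of possible targets. The seed of Mir-384_5p* is the one that RefSeq lists for miR-30a-5p, miR-30c-5p and miR-30e-5p. That of Mir-330_5p* is shared with miR-326-3p, and that of Mir-330_3p with miR-6240. The seed of Mir-674_5p is shared with miR-1947-3p and miR-3473d, and that of Mir-423_5p with miR-6921-5p.

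The third set shows the arms that varied most between mice, among them the Mir-8 family (miR-200 and relatives, known for keeping epithelial cells epithelial) and the Mir-96 family (miR-183, miR-182 and miR-96, known from sensory organs).
Mir-8-P1a_3p: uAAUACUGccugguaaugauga
Mir-8-P3a_3p: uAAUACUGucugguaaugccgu
Mir-8-P2a_3p: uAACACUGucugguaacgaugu
Mir-8-P2b_3p: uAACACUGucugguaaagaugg
Mir-96-P3_5p: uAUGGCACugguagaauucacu
Mir-96-P2_5p: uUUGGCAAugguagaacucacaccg
Mir-96-P1_5p: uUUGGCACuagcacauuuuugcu
Mir-1298_5p: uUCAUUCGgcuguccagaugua
Mir-448_3p: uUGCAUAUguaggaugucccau
The 4 Mir-8 arms carry 2 seeds: Mir-8-P1a_3p and Mir-8-P3a_3p share AAUACUG, while Mir-8-P2a_3p and Mir-8-P2b_3p share AACACUG. The 3 Mir-96 arms have 3 different seeds.

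Each value is a normalized count: every library's reads were scaled by a factor of its own. Summed over the 513 arms, the values corresponded to 7313305 to 10057266 reads per library, and reads outside these arms are not counted. Each library listed 487 to 505 arms above 0, and Spearman's rho between any 2 of the 6 libraries was 0.975 to 0.989 over the 513 arms. Replicate 5 stood apart in its epithelial miRNAs (below), and the spread of those arms is given with and without it. Small RNA libraries ligate adapters to some sequences more readily than to others, and no molecular identifiers are named, so a difference in level between 2 different arms combines abundance with capture. The part of capture in such differences was not tested, nor was that of library preparation in differences between libraries.

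Mir-9-P1/P2/P3_5p (miR-9-5p, which acts in neural progenitors and neurons) was the most abundant arm. Its values were 2280907, 2131847, 2279830, 1827579, 2087982 and 2178902 in replicates 1 to 6, or 24.8% ± 1.25 of a library's summed value (SD, n = 6). The row joins 3 genes of mm10: Mir9-1 (chr3:88215598-88215686, in an intron of the noncoding RNA Gm3764), Mir9-2 (chr13:83738814-83738885, in an exon of C130071C03Rik) and Mir9-3 (chr7:79505264-79505353, in an intron of Mir9-3hg). These 3 loci give the same 5p sequence, so their parts in the row could not be separated.

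Mir-128-P1/P2_3p (miR-128-3p, a neuronal miRNA that limits excitability) came next, with values of 690989, 455130, 692499, 493970, 479677 and 612297. The leading arm was 3.78-fold above it and higher in 6 of 6 libraries (exact sign-flip test over libraries, 2-sided p = 0.03125, the smallest that 6 libraries allow). Adjusted over the 19 neighbouring pairs of the 20 most abundant arms by Benjamini-Hochberg, this p was 0.119, so 0 of 19 pairs (0%) could be called. The arms were ordered by their means over these same 6 libraries. The p-values and counts of libraries therefore describe the order and are no independent support for it. The genes of Mir-128 lie in introns of R3hdm1 on chromosome 1 and Arpp21 on chromosome 9.

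Mir-218-P1/P2_5p (from introns of the axon guidance genes Slit2 and Slit3) had a mean of 403811 ± 62645 and stood below Mir-128 in 6 of 6 libraries, by 1.41-fold. Below it the order loosened. Mir-143_3p, an arm of smooth muscle and pericytes, came after it on its mean of 389280, but its values of 287670, 244406, 323905, 615012, 374503 and 490186 lay below Mir-218 in 3 libraries and above it in the other 3. Its 3 values in S41 libraries were all above its 3 values in S11 libraries. This was picked out after the values were seen. How many other arms separate by stem was not counted, so the split is not shown to be particular to Mir-143_3p.

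Mir-10-P2b_5p followed with 342770 to 446598 (median 352955), from a family that in MirGeneDB holds the miR-10, miR-99, miR-100 and miR-125 groups. Mir-127_3p, made from the imprinted Dlk1-Dio3 region opposite the retrotransposon-derived gene Rtl1, had 278828 to 361388 (median 338767). Mir-26-P1/P2_5p, widely expressed and hosted by the phosphatase genes Ctdspl and Ctdsp2, had 268775 to 381742 (median 311640). These 3 arms overlapped: Mir-10-P2b_5p was above Mir-127_3p in 5 of 6 libraries, and Mir-127_3p above Mir-26-P1/P2_5p in 4 of 6.

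A step that did not overlap within any library lay below Mir-26-P1/P2_5p, which was 1.35-fold above Let-7-P12_5p in 6 of 6 libraries. The let-7 miRNAs accumulate as cells differentiate. Let-7-P12_5p (197225 to 279057) and Let-7-P10/P5_5p (207635 to 292176) could not be ordered, each being the higher in 3 libraries. Let-7-P10/P5_5p was above Mir-30-P1a_5p (176064 to 216857) in 6 of 6, by 1.17-fold. Ranks 11 to 15 held Let-7-P11_5p, Mir-101-P1_3p, Mir-10-P2a_5p, Mir-21_5p and Mir-30-P1c_5p, with means of 191054, 189266, 173228, 171081 and 159110. None of the 4 steps between these arms held in more than 4 of 6 libraries.

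The last step seen in 6 of 6 libraries was that from Mir-30-P1c_5p to Mir-154-P13_5p, at 1.40-fold. Mir-154-P13_5p belongs to the large imprinted family of the Dlk1-Dio3 region and had values of 102103 to 124614. The ranks after it were held by Mir-27-P1/P2_3p (mean 102750), the endothelial Mir-126_3p(*) (97490), Mir-7-P1/P2_5p (97028) and Let-7-P3/P7_5p (92433). Mir-7-P1/P2_5p, a neuronal and endocrine miRNA, ranged most of these 4, with 135263, 100899, 83000, 53055, 87605 and 122349. In all, 5 of the 19 neighbouring pairs were ordered the same way in 6 of 6 libraries.

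**Figure D1:**
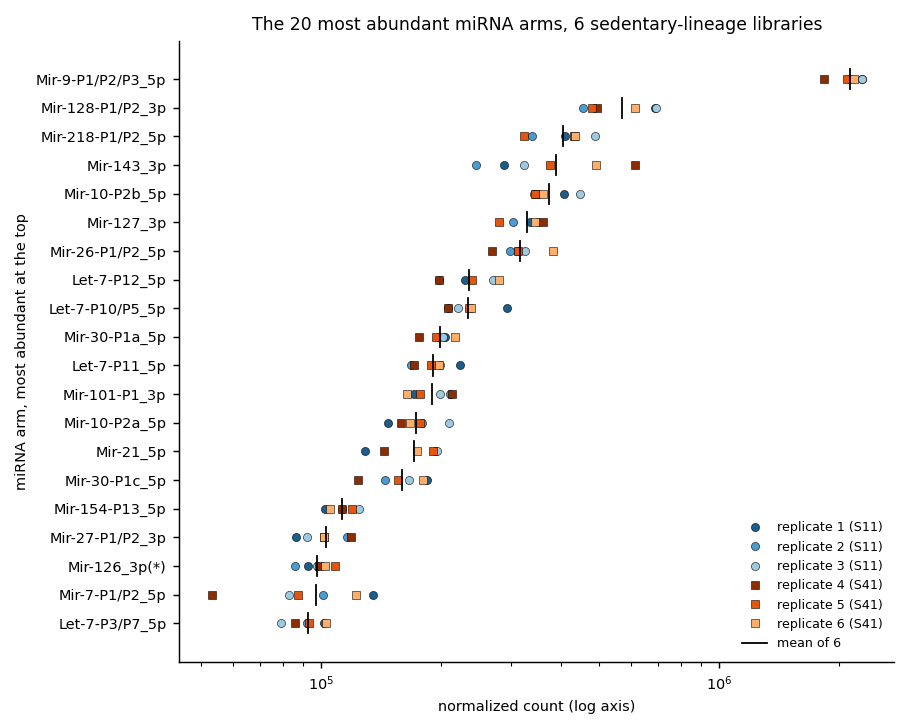
Normalized counts (log axis) of the 20 most abundant miRNA arms, with 1 point per sedentary-lineage library (circles S11, squares S41) and a bar at the mean of 6. Mir-9-P1/P2/P3_5p lies apart from the rest, while Mir-143_3p (244406 to 615012) and Mir-7-P1/P2_5p (53055 to 135263) spread over several ranks.

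The profile was steep. The 5 most abundant arms held 45.0% ± 1.41 of the summed value, the first 10 held 60.2% ± 1.69, the first 50 held 92.4% ± 0.310 and the first 100 held 97.7% ± 0.208 (SD, n = 6). In each library 6 to 7 arms made up 50% of the value, 40 to 44 made up 90% and 141 to 152 made up 99%. At the other end, 152 arms had means from 10 to 100 and 42 arms had means below 10.

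Mir-124-P1/P2/P3_3p, the best known neuronal miRNA and named here after its values were seen, was only at rank 39. Its values were 29931, 38458, 26668, 48140, 32177 and 28221. The passenger of the leading hairpin, Mir-9-P1/P2/P3_3p*, stood beside it at rank 37, with 31252 to 37753, and the values of these 2 arms overlapped.

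Arms marked as guides made up most of the value. The 306 guide rows held 96.5% ± 0.201, the 197 passenger rows held 2.14% ± 0.119 and the 10 rows with mixed marks held 1.32% ± 0.114. The median level was 594 for guide rows and 89.8 for passenger rows. Of the passenger arms, 5 had means of at least 10000: Mir-9-P1/P2/P3_3p* (34895), Mir-28-P3_3p* (31692), Mir-330_5p* (14771), Mir-219-P2_3p* (12318) and Mir-127_5p* (12063).

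Summed by family, 193 families were measured, and Mir-9 held 25.2% ± 1.26 of the value (22.9% to 26.4%). Let-7 held 9.80% ± 0.659, Mir-10 held 8.14% ± 0.433 and Mir-128 held 6.61% ± 0.938. Each of the steps from Mir-9 to Let-7, from Let-7 to Mir-10 and from Mir-10 to Mir-128 was seen in 6 of 6 libraries (exact sign-flip p = 0.03125 each, Benjamini-Hochberg adjusted over 11 pairs 0.0859, so that 0% were called). They measured 2.57-fold, 1.20-fold and 1.24-fold.

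Families from the fifth to the tenth rank were closer together. Mir-30 held 5.57% ± 0.373, Mir-218 held 4.69% ± 0.603, Mir-143 held 4.56% ± 1.74, Mir-127 held 3.96% ± 0.363, Mir-154 held 3.87% ± 0.266 and Mir-26 held 3.73% ± 0.328. No step between neighbours from Mir-128 down to Mir-101 was seen in more than 5 of 6 libraries. Mir-101 (2.94% ± 0.427), whose known targets include the histone methyltransferase Ezh2, was above Mir-21 (1.99% ± 0.344) in 6 of 6. These 12 families together held 81.0% ± 1.10, while 97 of the 193 families held less than 0.01% each.

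A large family share was built in different ways. In Mir-9, Mir-128, Mir-218, Mir-143, Mir-21, Mir-26 and Mir-127 1 row made up over 96% of the family. In Let-7 the value was divided over 4 rows above 10%, namely Let-7-P12_5p (27.9% ± 2.79 of the family), Let-7-P10/P5_5p (27.6% ± 1.74), Let-7-P11_5p (22.6% ± 0.692) and Let-7-P3/P7_5p (11% ± 0.996). Mir-10 was led by Mir-10-P2b_5p (53.4% ± 2.23) and Mir-10-P2a_5p (24.8% ± 2.28), and Mir-30 by Mir-30-P1a_5p (41.6% ± 1.45) and Mir-30-P1c_5p (33.1% ± 1.96).

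Mir-154 reached its share with 46 rows, more than any other of the 12 families. Mir-154-P13_5p made up 33.9% ± 1.18 of it, Mir-154-P7_5p 24.2% ± 1.67, Mir-154-P9_3p 14.7% ± 1.07 and Mir-154-P34_3p 10.3% ± 1.27, the last named after its value was seen. The imprinted Dlk1-Dio3 cluster is expressed from the maternal chromosome and active in brain. A list of its families, among them Mir-154, Mir-127 and Mir-370, held 9.02% ± 0.522 of the value in 64 arms (8.62% to 9.95%). The list is partial. It leaves out Mir-134, Mir-341 and Mir-541, whose genes lie in the same region of chromosome 12, with Mir-541_5p at a mean of 17408 and Mir-341_3p at 15351. This list, like the cell type lists, was chosen by family number with earlier results of these data known.

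Families of miRNAs known from certain cell types were summed to check the labelled tissue. The neuron list of 11 families (Mir-9, Mir-124, Mir-128, Mir-132 and others) held 39.5% ± 1.76, with 36.9% to 41.7% in the 6 libraries. Most of this was Mir-9 (25.2%), Mir-128 (6.61%) and Mir-218 (4.69%). Since Mir-9 also acts in neural progenitors, the share is not one of neurons alone. Oligodendrocyte miRNAs (Mir-219 and Mir-338) held 0.201% ± 0.0464, with replicate 1 lowest at 0.112%, and those of microglia and leukocytes held 0.226% ± 0.0278. Endothelial Mir-126 held 1.22% ± 0.114. In tissue RNA, fewer cells of a type and less RNA per cell cannot be told apart.

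Other lists changed more between mice than the neuron list did. Mural miRNAs (Mir-143 and Mir-145) held 3.00% to 7.60%, with the S41 libraries at 7.60%, 4.54% and 5.51% and the S11 libraries at 3.25%, 3.00% and 3.57%. Nearly all of this was Mir-143, with a mean of 4.56% beside 4.58% for the list, so the list describes 1 family. Mir-145_5p was highest in replicate 6 (2192, median 1362), whereas the list was highest in replicate 4. The split of the list by stem was not tested. Choroid plexus and ciliated cell miRNAs (Mir-204, Mir-34, Mir-1298 and Mir-448 among them) held 2.22%, 2.44%, 0.973%, 0.574%, 1.69% and 0.521%, so that replicates 1, 2 and 5 were high and replicates 4 and 6 low. Epithelial miRNAs (Mir-8 and Mir-96) held 0.0379% to 0.0961% in 5 libraries and 0.474% in replicate 5, and without replicate 5 their mean fell from 0.123% to 0.0525%.

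Lists of tissues outside the brain were low. Muscle miRNAs (Mir-1, Mir-133 and Mir-499) held 0.0397% to 0.0927%, again with replicate 5 highest. Their most abundant arm was Mir-1-P1/P2_3p at 3023 to 7282. Erythroid miRNAs (Mir-144, Mir-451 and Mir-486) held 0.00823% to 0.0149%, highest in replicate 2, where Mir-451_5p reached 550 against 185 to 321 elsewhere. Mesenchymal Mir-199 and Mir-214 held 0.00983% ± 0.00147, and the liver miRNA Mir-122_5p had 98.6 to 231 normalized counts.

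**Figure D2:**
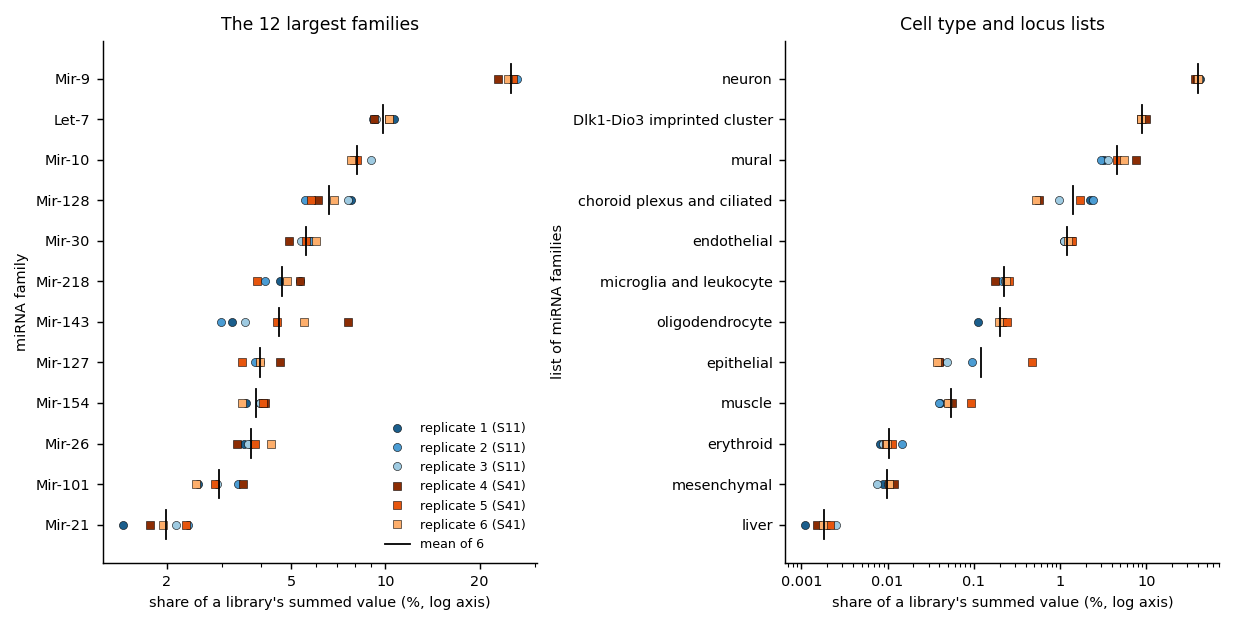
Share of each library's summed value (%, log axis) for the 12 largest families and for lists of families known from certain cell types or from 1 locus, with 1 point per library and a bar at the mean of 6. The neuron and Dlk1-Dio3 lists are narrow, while the mural, choroid plexus and epithelial lists spread, the last through replicate 5 (0.474%).

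Guide and passenger were compared within each library, as the log2 ratio of guide + 1 to asterisk arm + 1. Of 294 hairpins, or groups of hairpins that share rows, 96 had only 1 arm with a value, 94 had their guide on 5p, 78 had it on 3p, 17 had no asterisk and 9 had mixed marks. Among the 171 tested hairpins with 1 marked passenger, the guide was higher in 135, which is 78.9% of those tested, and the asterisk arm was higher in 24, which is 14.0% (limma on the log2 ratios, Benjamini-Hochberg adjusted p below 0.05). The other 12 were not called. The share with the guide higher was alike for guides on 5p (73 of 94) and on 3p (62 of 77), as counts with no test of their difference.

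The ratio had no typical size. Its median was 24.2-fold, with quartiles of 2.39-fold and 133-fold. The guide was over 100-fold above the passenger in 50 hairpins and over 1000-fold in 14, while 22 hairpins lay within 2-fold of equality. Without a call, the guide was higher in 6 of 6 libraries in 135 hairpins and the asterisk arm in 22.

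Mir-101-P1 had the largest ratio among hairpins with a passenger above 0 in every library. Its 3p guide had 164412 to 213332 against 9.06 to 23.6 for 5p, or 13.47 ± 0.14 (log2 ratio with its standard error). Mir-218-P1/P2 followed, with 26.4 to 69.2 for its passenger and a log2 ratio of 13.22 ± 0.17, and Mir-10-P2a and Mir-10-P2b reached 12.74 ± 0.09 and 12.57 ± 0.09. For Mir-21 (a widely expressed miRNA induced in injury and in glia) the ratio was larger, 14.64 ± 0.69, but its passenger was listed at 0 in replicates 1 and 5 and at 11.8 to 23.7 elsewhere, so that the added 1 sets part of it. The same holds for Mir-154-P9 (12.72 ± 0.49) and Mir-598 (12.18 ± 0.54), whose passengers were listed at 0 in 1 and 3 libraries. Let-7-P11, at 12.44 ± 0.27, had a passenger of 35.7 ± 13.2.

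The leading hairpin of the profile was far from these. Mir-9-P1/P2/P3_5p was 61.0-fold above its passenger, a log2 ratio of 5.93 ± 0.03, and its 6 log2 ratios of 5.92, 5.97, 6.01, 5.87, 5.87 and 5.94 varied less than those of any other hairpin with both arms at 100 or more. Mir-128-P1/P2, by contrast, was 1684-fold apart, with log2 ratios from 9.71 in replicate 2 to 11.39 in replicate 6. Mir-127 was 27.2-fold apart and Mir-124-P1/P2/P3 31.9-fold, and for both the guide was higher in 6 of 6 libraries.

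**Figure D3:**
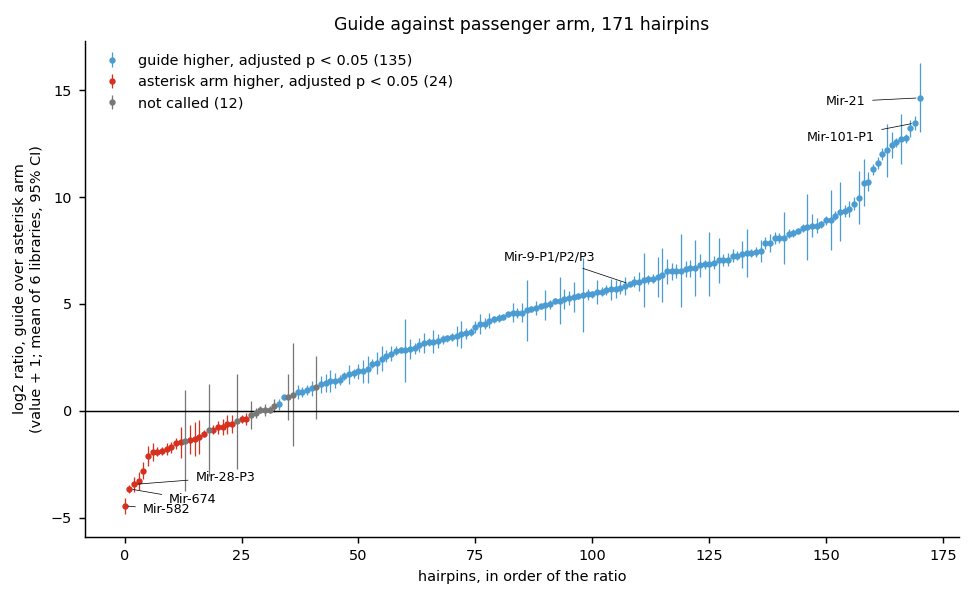
Log2 ratio of guide over asterisk arm (value + 1) for 171 hairpins in order of the ratio, each with the mean of 6 libraries and its 95% confidence interval from limma. Blue points (135) are above 0, red points (24) are below 0 and grey points (12) were not called.

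In the 24 hairpins with the asterisk arm higher, that arm exceeded the marked guide by 1.29-fold to 21.9-fold (median 2.83-fold), and 17 of them exceeded 2-fold. Mir-582, hosted by an intron of the phosphodiesterase gene Pde4d (chr13:109324744-109324824), showed the largest difference. Its 5p had 63.3, 107, 70.7, 104, 60.1 and 67.1, while 3p* had 1649, 1648, 2206, 1765, 1799 and 1234, 21.9-fold higher (adjusted p = 1.97e-08, limma). The lowest 3p* value lay far above the highest 5p value.

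Mir-674 (chr2:117185127-117185226, in no annotated host gene) had 331 to 431 for 5p and 4644 to 5502 for 3p*, 12.6-fold higher (adjusted p = 4.02e-10, limma). In Mir-28-P3 the 5p guide had 2081 to 3564 and 3p* had 22732 to 39972, 10.9-fold higher. The 2 groups of values did not overlap in either hairpin, and Mir-28-P3_3p* ranked at 40 among all 513 arms.

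Oligodendrocyte hairpins were among those with the asterisk arm higher. Mir-219-P1/P2, which drives oligodendrocyte maturation, had 525, 1846, 1249, 1978, 1259 and 1177 on 5p against 7174, 11944, 15723, 11488, 14976 and 13144 on 3p*, 9.74-fold higher. In Mir-338-P1, which acts in the same process, 5p* (1299 to 2243) exceeded 3p (951 to 2005) by 1.32-fold, in 6 of 6 libraries. In both hairpins replicate 1 was lowest on each arm.

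Mir-330, in an exon of Eml2 (chr7:19181465-19181562), had 3261 to 4553 on 3p and 13337 to 16323 on 5p*, 3.75-fold higher. Mir-671, in an exon of Chpf2 on chromosome 5, had 82.8 to 169 on 5p and 516 to 954 on 3p*, 6.97-fold higher. Mir-423, in an intron of Nsrp1 on chromosome 11, had 357 to 567 on 5p and 1414 to 1959 on 3p*, 3.64-fold higher. Mir-335, in an intron of the imprinted gene Mest, had 303 to 799 on 5p and 1282 to 2115 on 3p*, 3.46-fold higher. In all 4 hairpins every library had the asterisk arm above the guide.

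Mir-431 of the Dlk1-Dio3 region had 257 to 374 on 5p and 872 to 1143 on 3p*, 3.27-fold higher. Mir-384, whose 5p* carries the miR-30 seed printed above, had 729 to 904 on 3p and 1469 to 1839 on 5p*, 2.10-fold higher. Mir-34-P2a, of a family known from ciliated cells, had its 3p* higher by 2.87-fold. Mir-130-P1b and Mir-130-P2a, both low, had their 5p* higher by 4.36-fold and 3.82-fold. Smaller differences, of 1.85-fold, 1.72-fold and 1.29-fold, were measured for Mir-154-P8, Mir-17-P4 and Mir-376-P3.

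Mostly the same arm was the more abundant in the 6 exercised-lineage mice, which share no library with these. There the mean log2 ratio was also below 0 in 23 of the 24 hairpins, Mir-214 being the other, and 17 of the 24 had the asterisk arm higher in 6 of 6 libraries. Over the 171 hairpins, Spearman's rho between the mean log2 ratios of the lineages was 0.991, a description that rests mainly on the wide range of ratios between hairpins. The median absolute gap between lineages was 0.21 on the log2 scale. Libraries of both lineages were made with the same kit, and the part of capture in this recurrence was not tested.

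A few hairpins had 2 arms of nearly equal level, named here after their values were seen. Mir-181-P1c had 739 to 1004 on 5p and 717 to 1003 on 3p*, a log2 ratio of 0.05 with a 95% interval from -0.11 to 0.20. Mir-676, in an intron of Eda, had a log2 ratio of 0.05 with an interval from -0.12 to 0.23. Mir-3068 had a log2 ratio of -0.11 with an interval from -0.34 to 0.11. Differences as large as the ends of these intervals remain possible, so equality is not shown.

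Of the 26 tested hairpins without a single marked passenger, 22 were called (84.6%), 13 for 5p and 9 for 3p. Mir-28-P2, without an asterisk, was among the most unequal, with 588 to 1035 on 5p and 15899 to 26485 on 3p, 27.2-fold higher on 3p by the ratio of values + 1. Mir-154-P13 went the other way, 32.9-fold higher on 5p. Mir-136, antisense to Rtl1, had 10134 to 12849 on 5p and 22112 to 27977 on 3p, 2.32-fold higher on 3p.

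Mir-30-P1b was 4.76-fold higher on 5p and Mir-154-P36 3.64-fold higher on 3p. The activity-induced Mir-132 family held 2 patterns. Mir-132-P1 had 9035 to 13500 on 5p and 9612 to 21716 on 3p, with 3p higher in 4 of 6 libraries and no call (adjusted p = 0.0804, limma), while Mir-132-P2 was 4.70-fold higher on 5p. Mir-126, with mixed marks, had 13.8-fold more 3p than 5p.

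First bases were compared where both arms had a sequence, which held for 70 tested hairpins, because Argonaute is known to favour some 5′ bases. The more abundant arm began with U in 33 of 70 (47.1%) and the less abundant arm in 20 of 70 (28.6%), while 41.3% of all RefSeq mature miRNAs in the table did. Of the 24 hairpins with the asterisk arm higher, 12 had both sequences. In these the more abundant arm began with U in 7 and the other in 4, with Mir-582, Mir-671 and Mir-330 above as examples. Mir-423 and Mir-431 went the other way, with U on the less abundant arm. Over the first 4 bases, the more abundant arm held more A or U in 27 of 70 hairpins and the other arm in 19. In the 12 with the asterisk arm higher these counts were 2 and 5, the rest being equal. These differences were not tested.

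Spread between mice was measured as the coefficient of variation, the SD over the mean, for the 319 arms with a mean of at least 100. The median was 14.7% (quartiles 10.4% and 20.8%), 73 arms were below 10% and 16 were above 50%. Counting noise alone, from the reads behind each value, would give a median of 2.97%, and 39 arms lay within 2 times their counting noise. In the exercised lineage the median of the same arms was 16.7%, and Spearman's rho between the 2 lineages' coefficients was 0.55 over the 319 arms.

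The steadiest arms came from many families and levels. Mir-148-P2_5p* had 396, 406, 396, 404, 371 and 403, a coefficient of 3.23%, while counting noise at its level was larger than this. Mir-154-P13_3p had 3279 to 3589 (3.27%), Mir-92-P3_3p 3964 to 4524 (4.27%) and Mir-378_3p 21777 to 24592 (4.32%). Mir-378_3p and Mir-140_3p, the latter known from cartilage, at 16215 to 18331 (4.56%), were the most abundant of these 5. Of the 12 steadiest arms 5 were passengers, among them Mir-139_3p* (4.79%), Mir-27-P2_5p* (5.17%) and Mir-3068_3p* (5.55%), beside 90 passengers among all 319 arms ranked.

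Mir-154-P17_3p (5.29%), Mir-10-P3b/P3c_5p (5.44%), Mir-30-P2c_3p* (5.62%) and Mir-23-P1_3p (5.64%) completed the 12. As for Mir-148-P2_5p*, counting noise was larger than the coefficient for Mir-27-P2_5p* (8.21%) and Mir-30-P2c_3p* (6.82%). By family, the 29 Mir-154 arms had a median coefficient of 11.5% and the 14 Let-7 arms of 11.7%, both below the median of all arms. The 3 Mir-24 arms had 7.70%.

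**Figure D4:**
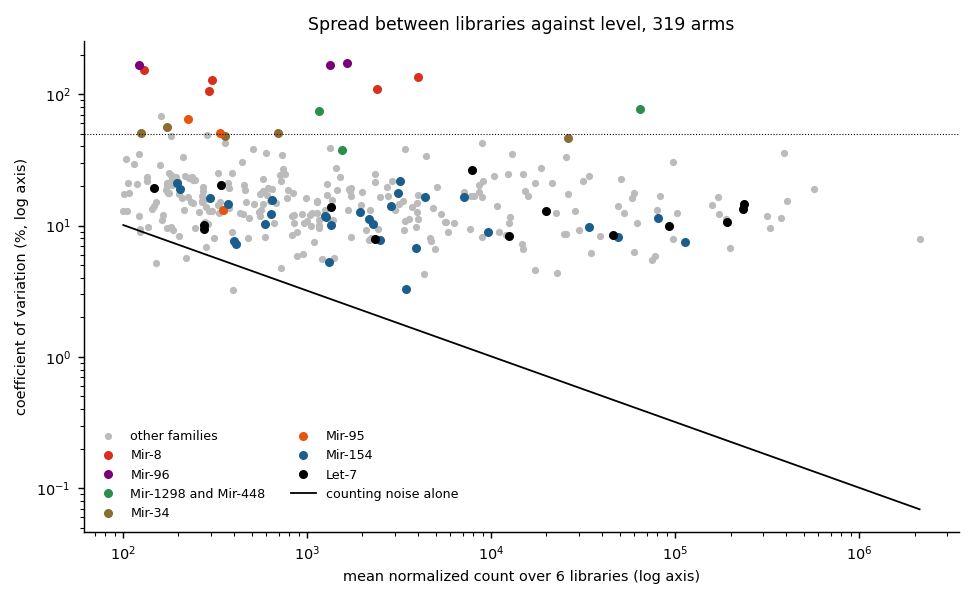
Coefficient of variation over the 6 libraries (%, log axis) against mean normalized count (log axis) for 319 arms, with families coloured and the line that counting noise alone would give. Mir-8 and Mir-96 arms lie at 105.9% to 173%, above the dotted line at 50%, while the Mir-154 arms reach at most 21.9%.

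Of the 16 arms above 50%, 9 were highest in replicate 5, 6 in replicate 2 and 1 in replicate 1. Mir-96-P3_5p (miR-183-5p) varied most, with 251, 945, 443, 287, 7476 and 543, a coefficient of 173%. Mir-96-P2_5p had 230, 927, 356, 239, 5816 and 430, and Mir-96-P1_5p had 26.8, 77.9, 32.2, 24.6, 535 and 35.4. These 3 miRNAs are encoded side by side on chromosome 6 (chr6:30165918-30169737), and in replicate 5 they were 16.9-fold, 16.3-fold and 16.6-fold above the median of the other 5 libraries.

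Mir-8 arms rose in the same library by smaller factors. Mir-8-P1a_3p (miR-200b-3p) had 1412, 3408, 1580, 1369, 14946 and 1304, and Mir-8-P2a_3p (miR-200a-3p) had 1382, 1941, 1567, 920, 7695 and 816. Replicate 5 exceeded the median of the others by 10.6-fold and 5.57-fold for these, by 15.4-fold for Mir-8-P2b_3p and by 8.37-fold for Mir-8-P3a_3p. The genes lie in 2 clusters, on chromosome 4 within Ttll10 (Mir200a, Mir200b, Mir429) and on chromosome 6 (Mir141, Mir200c).

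For the 3 Mir-96 arms, replicate 2 was second highest, at 2.14-fold to 2.60-fold the median of the others. It was also second highest for Mir-8-P2b_3p (2.79-fold), Mir-8-P1a_3p (2.41-fold), Mir-8-P3a_3p (1.86-fold) and Mir-8-P2a_3p (1.40-fold), but not for Mir-8-P1a_5p*. Without replicate 5 the coefficients fell to 56.4% for Mir-96-P3_5p, 65.6% for Mir-96-P2_5p and 55.8% for Mir-96-P1_5p. For the Mir-8 arms they fell to 59.8% (Mir-8-P2b_3p), 49.4% (Mir-8-P1a_3p), 41.4% (Mir-8-P3a_3p), 35.1% (Mir-8-P2a_3p) and 27.0% (Mir-8-P1a_5p*). Without that library, 13 arms exceeded 50% when the arms with a mean of at least 100 were chosen again. In the exercised lineage Mir-96-P3_5p and Mir-8-P1a_3p had coefficients of 55.0% and 24.9%. The muscle list was also highest in replicate 5 (its mean share was 0.0549% with that library and 0.0473% without), with Mir-1-P1/P2_3p at 7282 against 3023 to 4296 elsewhere. The neuron list of replicate 5, at 38.4%, lay within the range of the others. The part of tissue outside the hippocampus in these values was not tested.

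A second pattern followed replicates 1, 2 and 5. Mir-1298_5p had 124316, 117838, 40200, 14239, 75649 and 12623, a coefficient of 77.5%, and Mir-448_3p had 2125, 2190, 671, 302, 1420 and 291, a coefficient of 74.6%. Both genes lie in introns of Htr2c on the X chromosome (chrX:147064905-147065002 and chrX:147158210-147158321), the serotonin receptor gene known for its high expression in choroid plexus. Their 6 values fell into nearly the same order.

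Among other arms of the choroid plexus and ciliated list, Mir-34-P2b_5p and Mir-204-P1_5p also had replicates 1, 2 and 5 highest. Their ranges were narrower than those of Mir-1298_5p and Mir-448_3p. Mir-34-P2b_5p had 31657, 46233, 22500, 16593, 26887 and 12460, and Mir-204-P1_5p, known from choroid plexus and retinal pigment epithelium, had 35935, 29576, 22609, 13329, 31898 and 19394. Mir-34-P1_5p, of the same list, did not follow them: it had 431, 566, 702, 553, 1391 and 538, lowest in replicate 1, and its coefficient of 50.4% fell to 17.3% without replicate 5. The list held 5 families with rows and 13 arms, and its share ranged 4.68-fold between the libraries. Mir-95-P4_3p, which is on no list, had 287, 476, 100, 167, 234 and 86.1, again with replicates 1, 2 and 5 highest. In the exercised lineage Mir-1298_5p and Mir-448_3p had coefficients of 93.5% and 91.0%. How much choroid plexus each sample held was not tested.

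The arms of Mir-1298 ranked the libraries in the same order but differed in how widely they varied. Its 5p values spanned 9.85-fold and its 3p* values (2192, 2156, 1371, 956, 1745 and 849) spanned 2.58-fold, so that the log2 ratio ran from 3.89 to 5.83, the largest SD (0.89) among the 81 hairpins with both arms at 100 or more. The median SD of the log2 ratio in these 81 was 0.23.

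In another pattern a single library was high. Mir-128-P2_5p* had 384 in replicate 2 and 95.2 to 126 in the other 5, a coefficient of 68.4%, while its guide row was not raised there (455130, the lowest of the 6). In the exercised lineage Mir-128-P2_5p* had a coefficient of 65.2%. Of the 16 arms above 50%, 10 exceeded 50% in the exercised lineage too, among them Mir-1298_5p, Mir-448_3p, Mir-128-P2_5p* and the 3 Mir-96 arms.

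**Figure D5:**
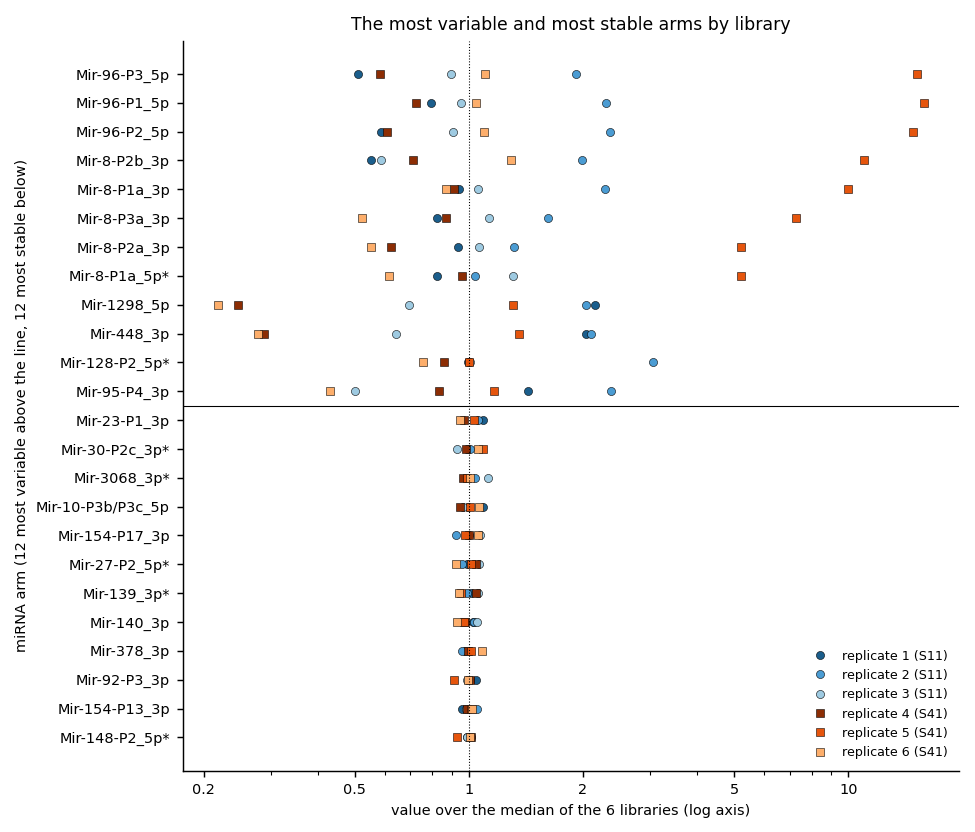
Value over the median of the 6 libraries (log axis) for the 12 most variable arms (above the line) and the 12 steadiest arms (below), 1 point per library. Replicate 5 is highest for the 8 Mir-96 and Mir-8 arms, replicates 1 and 2 lead Mir-1298_5p and Mir-448_3p, and the steadiest arms stay close to 1.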

How the data were processed

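Small RNA from the hippocampus of 12 mice was sequenced with the NEBNext small RNA kit after miRNeasy extraction, per the labels' protocols. The deposited signal is a table of 513 miRNA arms by library. Bowtie 1.3.0, mm10 and DESeq2 were used, per the submitters' processing notes. How reads were trimmed, the mismatches allowed and the handling of multiple matches: not given in the sources used here. Although called raw, the deposited columns hold non-negative signal values, reads divided by 1 factor per library: 100% are whole multiples (within 0.01) of 1 step per library. The step gave the depth and counting noise. As the smallest value stood for 2 to 6 reads, no count model was fitted.

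Log2 ratios of value + 1 were fitted within libraries with limma 3.58.1 in R 4.3.3 (intercept only, empirical Bayes with trend, 2-sided), for hairpins whose more abundant arm had a mean of at least 10. Rank neighbours were compared by an exact sign-flip test over 64 patterns. Arms and families were ordered by means over the same libraries, so these tests give no independent support for the order. On simulated data (5 sets of 197 hairpins), limma called 35.7% of 1.25-fold, 63.6% of 1.5-fold, 87% of 2-fold and 99.0% of 4-fold differences, and 6 of 595 unchanged hairpins. Most simulated hairpins had no planted difference and none had more than 4-fold. In the data most hairpins were called and many ratios were larger, so these rates need not hold there. Guide and passenger come from the same library, so the pairing is by construction. Library pairs differed by more than counting noise (chi-square per degree of freedom 247 to 802), so none was counted as a duplicate.

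Named arms are the 20 most abundant, the 12 steadiest and 12 most variable, and the 3 leading arms of each list. Named hairpins are the 8 with the largest and the 8 with the smallest ratios, up to 15 with the asterisk arm higher, and the most abundant or unequal ones without an asterisk. Named families are the 12 largest. Other arms and hairpins named (Mir-124, Mir-154-P34, Mir-132-P2, Mir-154-P36, Mir-214, the ratios of Mir-9, Mir-126, Mir-127, Mir-128 and Mir-1298, and pairs of nearly equal arms) were chosen after their values were seen. Members and lists were chosen with earlier results of these data known. Positions come from GENCODE M21 (GRCm38). Alternatives were other pseudocounts, filters, scalings and spread measures, an unpaired fit, left-out libraries, 1 code stem, and the exercised lineage.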

Additional observations from a re-analysis of the deposited data

Results flagged for a closer look

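In 20 of 90 series of 6 values examined (named arms, families and list shares), 1 library lay far from the other 5. Chance flags about 1 in 20 series that are not chosen for their spread, but that rate does not apply here, because many of these arms were chosen by their spread over the same 6 values and the lists sum arms that are also counted singly. Of the 20, 13 lay in replicate 5. There Mir-8-P1a_3p was 14946, Mir-8-P2a_3p 7695, Mir-8-P2b_3p 534, Mir-8-P3a_3p 1090 and Mir-8-P1a_5p* 916. The Mir-96 arms were at 7476 (Mir-96-P3_5p), 5816 (Mir-96-P2_5p) and 535 (Mir-96-P1_5p), and the epithelial list at 0.474%. The muscle arms Mir-1-P1/P2_3p (7282) and Mir-1-P3_3p (158) and the muscle list (0.0927%) were high in that library too. Most of that list is Mir-1-P1/P2_3p, so the list and this arm are largely the same values. Mir-499_5p (mean 147), another leading arm of the muscle list, was not flagged. Mir-148-P2_5p* (371) was lowest in replicate 5 among 6 steady values.

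In replicate 1, Let-7-P10/P5_5p was high at 292176, and the oligodendrocyte arm Mir-338-P1_5p* (1299) and the oligodendrocyte list (0.112%) were low. Replicate 2 was high in erythroid Mir-451_5p (550) and in Mir-128-P2_5p* (384). Mir-145_5p of smooth muscle was high in replicate 6 (2192), and the Mir-10 family in replicate 3 (8.99%). No library was left out of the values in the report because of these, and what sets replicate 5 apart was not tested.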

How the results depend on the processing

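The counts of arm calls kept within 1.5 times under each alternative run. Without the pairing within libraries (no replicate block) the guide was higher in 135 hairpins and the asterisk arm in 23. Leaving out 1 library at a time gave 134 to 135 and 23 to 25, and a mean of at least 100 gave 129 and 20. A count model on recovered reads was not run. The share of the Mir-9 family was 24.9% to 25.6% and that of the neuron list 39.1% to 40.0% with 1 library left out, and the same 20 arms led each time.

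The lists of extreme arms were less steady. Of the 12 most variable arms, 6 were again among the 12 most variable in the exercised lineage, 6 in the S11 libraries alone and 6 among arms with a mean of at least 1000, a filter that removes the low ones. With 1 library left out 6 to 12 were, the 6 without replicate 5. Of the 12 steadiest arms, 5 were found again with scaling by library totals, 5 with the upper quartile, 5 by the median absolute deviation, 3 in S11 libraries, 3 in S41 libraries and 2 in the exercised lineage. With 1 library left out 5 to 9 were, with 6 without replicate 2, 6 without replicate 3 and 5 without replicate 4. The cause was not tested. Arms above 50% numbered 13 to 20 with 1 library left out, and 6 at a mean of at least 1000. Depth limits the precision of the arms with the lowest counts most.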

Other observations

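Values listed at 0 belonged to arms of low mean level. Of 3078 values, 93 were 0, in 60 arms of which 35 were passengers, and in 42 of these values the other libraries' mean corresponded to 10 or more reads at that library's depth. Mir-3085_3p was listed at 0 in replicates 2 and 3, where 124 and 102 reads would match its mean elsewhere, and had 106 to 139 normalized counts in the other 4 libraries. It was the only arm with a mean of at least 50 that was listed at 0 in a library, and no arm with a mean of at least 100 was. A value of 0 in these files is therefore given as listed at 0 and not as absence.

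The Dlk1-Dio3 list covers only part of that imprinted cluster. In its 21 tested hairpins the guide was higher in 17 and the asterisk arm in 3. These shares lie close to the 78.9% and 14.0% of all 171 marked hairpins. The median ratio of these 21 hairpins was 43.8-fold, beside 24.2-fold for all 171. All 8 tested Let-7 hairpins had the guide higher, at 9.33-fold to 5565-fold. Of the 3 tested Mir-130 hairpins, 2 had the asterisk arm higher. Both tested Mir-376 hairpins, which the Dlk1-Dio3 list does not hold, did too, by 1.53-fold and 1.29-fold. These families hold few hairpins, to be read against the same overall shares. They were named after their values were seen, and their differences from other hairpins were not tested.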
